A study of Mus musculus with 8 samples.

Results

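The 10 genes described here encode protein components of the machinery that releases paused RNA polymerase II: Cdk9, Ccnt1 and Ccnt2 of positive transcription elongation factor b (P-TEFb), Hexim1, Larp7 and Mepce of the 7SK ribonucleoprotein, and Aff4, Ell, Mllt1 and Mllt3 of the super elongation complex (SEC). They were chosen by name, with earlier results of these data known, as 10 of the 55401 genes listed in each count table. All 10 were among the 17532 genes that passed the filter on low counts. The tables come from total RNA of mouse embryonic stem cells (ESCs), 8 cultures in all, sequenced to ask how transcript abundance responded to loss of ATAC, a histone acetyltransferase complex that acts as a coactivator. The groups, named as in the labels, were Control (n = 2), Zzz3_auxin (n = 3) and Yeats2_auxin (n = 3). In the auxin groups the ATAC core subunit ZZZ3 or YEATS2 was fused to an auxin-inducible degron (AID), which leads to degradation of the fusion protein by way of the plant F-box protein Tir1, and auxin was given at 500 μM for 24 h. The cells were grown on gelatin in serum with leukemia inhibitory factor and the 2i inhibitors CHIR99021 and PD0325901, under G418 selection for Tir1. For the Control libraries the labels name neither the cell line nor a treatment. The supplement of the study speaks of solvent and auxin in AID cells and its methods call the reference wild type, so that depletion, exposure to auxin and any difference of line cannot be told apart. Nothing in the labels ties the replicates to separate clones or days, so P values measure the spread between these samples, which may be technical.

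P-TEFb is the kinase CDK9 bound to cyclin T1 or T2. It phosphorylates the polymerase, the negative elongation factor NELF and the pausing factor DSIF, after which polymerase leaves the pause near the promoter. Much of the cell's P-TEFb is held inactive by HEXIM1 on the noncoding 7SK RNA, which MEPCE caps and LARP7 protects at its end, whereas the SEC, assembled on AFF4, brings active P-TEFb to genes together with an ELL elongation factor and one of the YEATS domain proteins ENL (Mllt1) or AF9 (Mllt3). In pluripotent cells this step is known for setting how quickly inducible and developmental genes respond.

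HEXIM1 recognizes the first hairpin of 7SK RNA, in which short GATC (in RNA, GAUC) elements lie. The 110 bases at the 5′ end of mouse 7SK (Rn7sk, 331 bases, minus strand of chr9:78175524-78175633, GRCm38, from the GENCODE transcript) are shown because this part ties the inhibitor to its RNA, with each GATC in capitals, of which the stretch held 3.

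Rn7sk 5′ end: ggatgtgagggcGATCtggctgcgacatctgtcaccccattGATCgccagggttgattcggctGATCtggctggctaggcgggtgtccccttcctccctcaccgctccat

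Promoter windows of 300 bases, from 250 before to 50 after the RefSeq start (GRCm38.p6), were matched for 9 of the 10 members, with 2 windows for Mllt3. Those of Ccnt1 and Aff4 are shown because these were the members whose libraries lay below both controls in each auxin group. Capitals mark CpG dinucleotides, 37 in Ccnt1 (minus strand of chr15:98567687-98567986) and 44 in Aff4 (plus strand of chr11:53350517-53350816).

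Ccnt1 promoter: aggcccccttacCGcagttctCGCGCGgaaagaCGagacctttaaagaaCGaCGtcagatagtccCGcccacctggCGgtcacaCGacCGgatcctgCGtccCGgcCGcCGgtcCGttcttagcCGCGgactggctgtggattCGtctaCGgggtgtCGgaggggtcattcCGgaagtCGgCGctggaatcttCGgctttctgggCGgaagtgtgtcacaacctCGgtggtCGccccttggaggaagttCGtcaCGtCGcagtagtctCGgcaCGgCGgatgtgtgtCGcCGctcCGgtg

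Aff4 promoter: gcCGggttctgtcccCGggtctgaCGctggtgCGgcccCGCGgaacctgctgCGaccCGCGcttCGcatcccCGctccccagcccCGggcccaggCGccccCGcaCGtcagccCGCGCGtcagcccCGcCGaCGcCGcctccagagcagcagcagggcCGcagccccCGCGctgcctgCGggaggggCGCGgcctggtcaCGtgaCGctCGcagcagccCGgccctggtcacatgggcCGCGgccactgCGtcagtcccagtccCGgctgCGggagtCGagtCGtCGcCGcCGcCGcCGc

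Across all 32851 promoter windows of the table the median was 7 CpGs. The members lay far above it, from 21 in Hexim1 to 46 in Mllt1, except the second window of Mllt3 with 4. No member window held the TATA box letters TATAAA on either strand, which 13.6% of all windows did. The CCAAT box letters (CCAAT, either strand) were in 7 of the 10 member windows and in 37.4% of all windows, and the GC box letters (GGGCGG, either strand) in 8 of 10 and in 35.7% of all windows. The Aff4 window held none of these 3 motifs and the Ccnt1 window the GC box alone. These are matches of letters in a fixed window, and nothing about binding follows from their presence or absence.

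Assigned reads numbered 14315120 (Zzz3_auxin 3) to 27884704 (Yeats2_auxin 2) per library. The targeted transcript Zzz3 was at 186 and 182 CPM (counts scaled to library size by edgeR's trimmed mean of M values, TMM) in Control, at 77.5, 96.9 and 112 in Zzz3_auxin and at 189, 183 and 191 in Yeats2_auxin. Its level thus set the Zzz3_auxin libraries apart from the others. Its log2 fold change (FC) against Control was -0.95 ± 0.14 (SE), with an adjusted P of 0.0187 in edgeR's quasi-likelihood test. By the same test, it was no longer called without Zzz3_auxin 1, Yeats2_auxin 1 or Yeats2_auxin 3 (adjusted P = 0.0516, 0.0645 and 0.0521). Nor was it called when only the compared groups were fitted (adjusted P = 0.159), a fit that called 0 genes. Without Control 1 or Control 2, which leaves 1 control library, it was not called either, at a log2 FC of -0.93 and -0.96. Yeats2 RNA was at 90.9 and 95.8 CPM in Control and at 77.3, 103 and 43.7 in Yeats2_auxin, which overlapped. In Zzz3_auxin it was at 133, 119 and 123 CPM, above every Yeats2_auxin library. The degron acts on the protein, so neither targeted RNA has to follow depletion. Yeats2 RNA did not set its libraries apart from Control. Summed over 8 ESC markers, levels were between 4570 and 5319 CPM in every library, the lowest marker at 103 CPM, and the 6 fibroblast markers summed to at most 12.4 CPM, of which Col1a1, Col3a1, Thy1 and Postn stayed under 1 CPM. Col1a2 reached 1.22 CPM, and Pdgfrb, at 5.67 to 10.8 CPM, made up most of that sum. The primitive endoderm, neuroectoderm and mesendoderm lists summed to at most 7.18, 72.0 and 22.8 CPM. Nes, at 35.9 to 68.0 CPM, made up most of the neuroectoderm sum. In such bulk RNA, fewer cells of a type and less RNA per cell cannot be told apart. Libraries also differed in how counts depended on GC content: the median log2 ratio to the mean library for genes of high GC, minus that for genes of low GC, was -0.64 in Control 1, 0.49 in Zzz3_auxin 3, 0.18 in Zzz3_auxin 1, 0.14 in Yeats2_auxin 2 and between -0.08 and 0.04 in the other 4.

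The P-TEFb, 7SK and SEC genes were all expressed, and none was called in any comparison at an adjusted P under 0.05 by edgeR, over all 17532 genes. In Zzz3_auxin against Control the call rate over all genes was 0.753%, in Yeats2_auxin against Control 0.445%, and between both depletions 0 percent. At an unadjusted P under 0.05, 3 members passed in Zzz3_auxin (Ccnt1, Ccnt2 and Aff4, all lower) beside 21.7% of all genes, 2 passed in Yeats2_auxin (Ccnt1 and Aff4, both lower) beside 14.6%, and 0 passed between both depletions beside 6.25%. DESeq2 called 1 member in Zzz3_auxin (Ccnt1) beside 7.47% of the genes to which it gave an adjusted P, 0 in Yeats2_auxin beside 3.15%, and 0 between both depletions beside 0.00909%. The members' shares were therefore near those of all genes. Both comparisons against Control use the same 2 libraries and are not independent.

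The 95% intervals of the main fit, not adjusted for the number of genes, show how precisely each log2 FC was estimated. The 95% interval of the log2 FC lay within a 2-fold change for 10 of 10 members in each comparison, as it did for 62.9% of all genes in Zzz3_auxin, 66.4% in Yeats2_auxin and 73.8% between both depletions. The lowest bound was -0.67 (Ccnt1 in Zzz3_auxin) and the highest 0.99 (Cdk9 in Yeats2_auxin). That Cdk9 estimate ran from 0.17 to 0.59 over the alternative fits, so its interval depends on the fit. Raw counts of the members ranged from 262 (Mllt1) to 9603 (Aff4) per library, so counting error was small and the spread between libraries set the width of these intervals.

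Levels were compared between genes as CPM per kilobase of annotated exon. Larp7 stood highest in each group, at 60.1 ± 3.78 (SD, n = 2) CPM per kb in Control, 62.6 ± 13.5 (n = 3) in Zzz3_auxin and 70.2 ± 1.01 (n = 3) in Yeats2_auxin. Aff4, Ccnt1 and Ccnt2 followed at 31.3 ± 2.88, 29.4 ± 3.38 and 29.0 ± 4.17 in Control, and their libraries overlapped. In Zzz3_auxin Aff4 did not overlap Ccnt1, and in Yeats2_auxin Ccnt2 did not overlap Ccnt1. Mepce (14.9 ± 2.27) and Hexim1 (14.6 ± 1.30) came next and overlapped each other in all 3 groups. The kinase gene Cdk9 was below them at 9.36 ± 0.154, and its libraries overlapped those of Hexim1 in Yeats2_auxin alone. Ell (5.08 ± 1.15), Mllt1 (3.95 ± 0.925) and Mllt3 (2.34 ± 0.356) were lowest, in this order in each group, with Ell and Mllt1 overlapping in Control and Zzz3_auxin. Per kilobase of annotated exon, both cyclin T genes thus stood about level in Control and above the kinase gene. Exon lengths span all annotated isoforms of a gene, and the isoforms expressed were not measured. The order between genes therefore depends on the annotation.

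**Figure D1:**
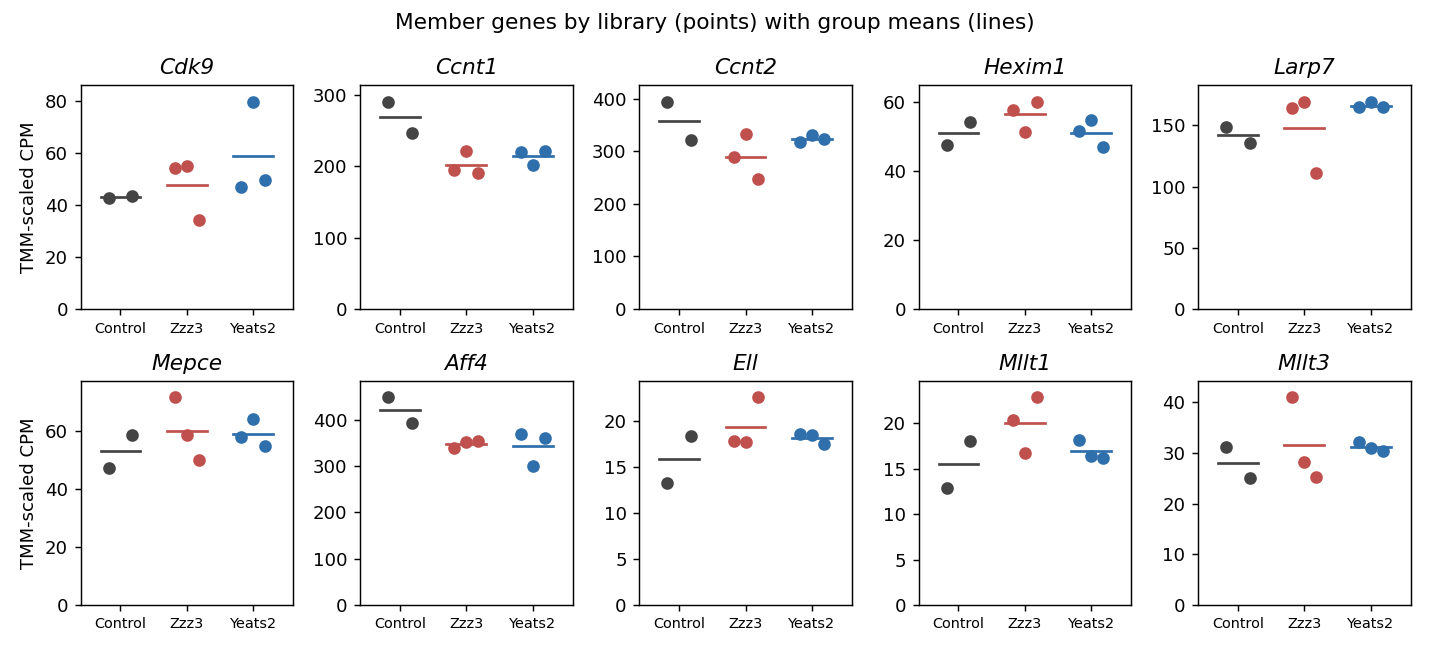
TMM-scaled CPM (vertical axis, from 0, with a separate scale for each gene) of the 10 members in the 2 Control, 3 Zzz3_auxin (Zzz3) and 3 Yeats2_auxin (Yeats2) libraries, where points are libraries and lines group means. Ccnt1 and Aff4 lie below both controls in all 6 auxin libraries, Cdk9 has 1 high library at 79.9 CPM in Yeats2_auxin, and most other genes overlap between groups. Of all genes, 35.8% in Zzz3_auxin and 40.3% in Yeats2_auxin did not overlap Control, in either direction.

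Of all members, Ccnt1 had the lowest adjusted P in both comparisons against Control. It encodes cyclin T1, the main partner of CDK9 (chr15:98538689-98570923, minus strand; 9157 bases of exon; GRCm38). It was at 291 and 247 CPM in Control, 196, 221 and 191 in Zzz3_auxin and 220.3, 203 and 222 in Yeats2_auxin. Every auxin library was below both controls. Such separation from Control was common, at 35.8% of all genes in Zzz3_auxin and 40.3% in Yeats2_auxin, in either direction. The share of genes separated in both at once was not counted. The log2 FC was -0.41 ± 0.12 (SE, as for each log2 FC) in Zzz3_auxin (95% interval -0.67 to -0.15, adjusted P = 0.0991 by edgeR), a level of 0.753 times Control, and -0.32 ± 0.12 in Yeats2_auxin (-0.59 to -0.06, adjusted P = 0.246), or 0.799 times. DESeq2 gave adjusted P values of 0.0466 and 0.212. Over all alternatives the adjusted P for Zzz3_auxin ranged from 0.0466 to 0.633, and the estimate stayed below 0 in all 16. An antisense gene, 9330020H09Rik, overlaps Ccnt1 and had 3.22 to 5.31 CPM. Whether reads were counted by strand is not stated, so reads of both genes may not have been fully separated.

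Ccnt2, the gene of the alternative partner cyclin T2 (chr1:127774164-127808061, plus strand), was at 394 and 322 CPM in Control, 289, 332 and 248 in Zzz3_auxin and 318, 330.0 and 323 in Yeats2_auxin. Control 1 was the highest library and the groups overlapped. The estimates against Control were a log2 FC of -0.31 ± 0.14 in Zzz3_auxin (-0.61 to -0.0022, adjusted P = 0.228) and -0.15 ± 0.14 in Yeats2_auxin (-0.45 to 0.16, adjusted P = 0.663).

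Cdk9, the catalytic subunit (chr2:32705784-32713076, minus strand), had the widest spread of the members, with 2.32 times between the highest and the lowest library. It was at 42.7 and 43.7 CPM in Control, 54.2, 54.9 and 34.5 in Zzz3_auxin and 47.1, 79.9 and 49.7 in Yeats2_auxin. Zzz3_auxin overlapped Control, whereas all 3 Yeats2_auxin libraries were above both controls. Estimates of the log2 FC were 0.15 ± 0.24 in Zzz3_auxin (-0.38 to 0.69, adjusted P = 0.757) and 0.45 ± 0.25 in Yeats2_auxin (-0.09 to 0.99, adjusted P = 0.420). The Yeats2_auxin estimate was 0.17 without the second library of that group, the highest of the 8. The microRNA genes Mir2861 and Mir3960, which lie within Cdk9 on the same strand, were listed at 0 counts in every library.

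Among the genes of 7SK proteins, Hexim1, the inhibitor of P-TEFb (chr11:103116231-103119725, plus strand), was the steadiest of all members, with a ratio of 1.28 between its highest and lowest library. It was at 47.7 and 54.2 CPM in Control, 57.8, 51.3 and 60.2 in Zzz3_auxin and 51.6, 54.8 and 47.1 in Yeats2_auxin, and the groups overlapped. Its log2 FC was 0.15 ± 0.13 (-0.14 to 0.43, adjusted P = 0.542) and 0.01 ± 0.13 (-0.28 to 0.29, adjusted P = 0.989) in Zzz3_auxin and Yeats2_auxin.

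Larp7, whose protein binds and stabilizes 7SK (chr3:127536714-127553349, minus strand), was at 148 and 136 CPM in Control, 164, 169 and 111 in Zzz3_auxin and 165, 169 and 165 in Yeats2_auxin. The 3 Yeats2_auxin libraries were above both controls and close together, while Zzz3_auxin 3 was the lowest of the 8. The log2 FC was 0.06 ± 0.16 in Zzz3_auxin (-0.29 to 0.42, adjusted P = 0.860) and 0.22 ± 0.16 in Yeats2_auxin (-0.13 to 0.58, adjusted P = 0.549). Larp7 hosts the ESC microRNA genes Mir302a, Mir302b, Mir302c, Mir302d and Mir367 on the opposite strand, which had 0 to 14 counts per library in these tables.

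Mepce, the capping enzyme of 7SK (chr5:137781906-137787655, minus strand), was at 47.2 and 58.6 CPM in Control, 71.6, 58.6 and 50.1 in Zzz3_auxin and 58.0, 64.0 and 54.8 in Yeats2_auxin, with overlap between all groups. The log2 FC was 0.18 ± 0.16 (-0.17 to 0.54, adjusted P = 0.542) in Zzz3_auxin and 0.16 ± 0.16 (-0.20 to 0.51, adjusted P = 0.696) in Yeats2_auxin.

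Of the SEC genes, Aff4 was the other member below both controls throughout. It encodes the scaffold on which the SEC assembles (chr11:53350833-53421830, plus strand; 13450 bases of exon). It was at 448 and 394 CPM in Control, 338, 352 and 353 in Zzz3_auxin and 368, 299 and 361 in Yeats2_auxin. The log2 FC was -0.28 ± 0.12 in Zzz3_auxin (-0.54 to -0.01, adjusted P = 0.220) and -0.30 ± 0.12 in Yeats2_auxin (-0.56 to -0.03, adjusted P = 0.295), levels of 0.826 and 0.814 times Control. Gm25930 and Mir6920, on the same strand within Aff4, had 0 to 10 counts each.

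Ell, an elongation factor that keeps polymerase from transient stops (chr8:70539457-70592858, plus strand), was at 13.3 and 18.3 CPM in Control, 17.8, 17.7 and 22.6 in Zzz3_auxin and 18.6, 18.4 and 17.4 in Yeats2_auxin. Control 1 was the lowest library and Control 2 lay among the others. Against Control the log2 FC was 0.29 ± 0.18 (-0.11 to 0.68, adjusted P = 0.379) and 0.20 ± 0.18 (-0.19 to 0.59, adjusted P = 0.638).

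Mllt1 and Mllt3 encode the YEATS domain readers ENL and AF9, which bind acetylated histone tails. Mllt1 (chr17:56892611-56935415, minus strand) was at 12.9 and 18.1 CPM in Control, 20.3, 16.8 and 22.9 in Zzz3_auxin and 18.2, 16.4 and 16.1 in Yeats2_auxin, again with Control 1 lowest and Control 2 within the range of the auxin libraries. Its log2 FC was 0.36 ± 0.19 in Zzz3_auxin (-0.05 to 0.78, adjusted P = 0.286) and 0.13 ± 0.19 in Yeats2_auxin (-0.28 to 0.54, adjusted P = 0.787). Mllt3 (chr4:87769925-88033364, minus strand) was at 31.1 and 25.0 CPM in Control, 41.0, 28.3 and 25.2 in Zzz3_auxin and 32.2, 31.0 and 30.4 in Yeats2_auxin. The groups overlapped, and the log2 FC was 0.17 ± 0.20 (-0.26 to 0.60, adjusted P = 0.651) and 0.15 ± 0.20 (-0.27 to 0.58, adjusted P = 0.755).

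**Figure D2:**
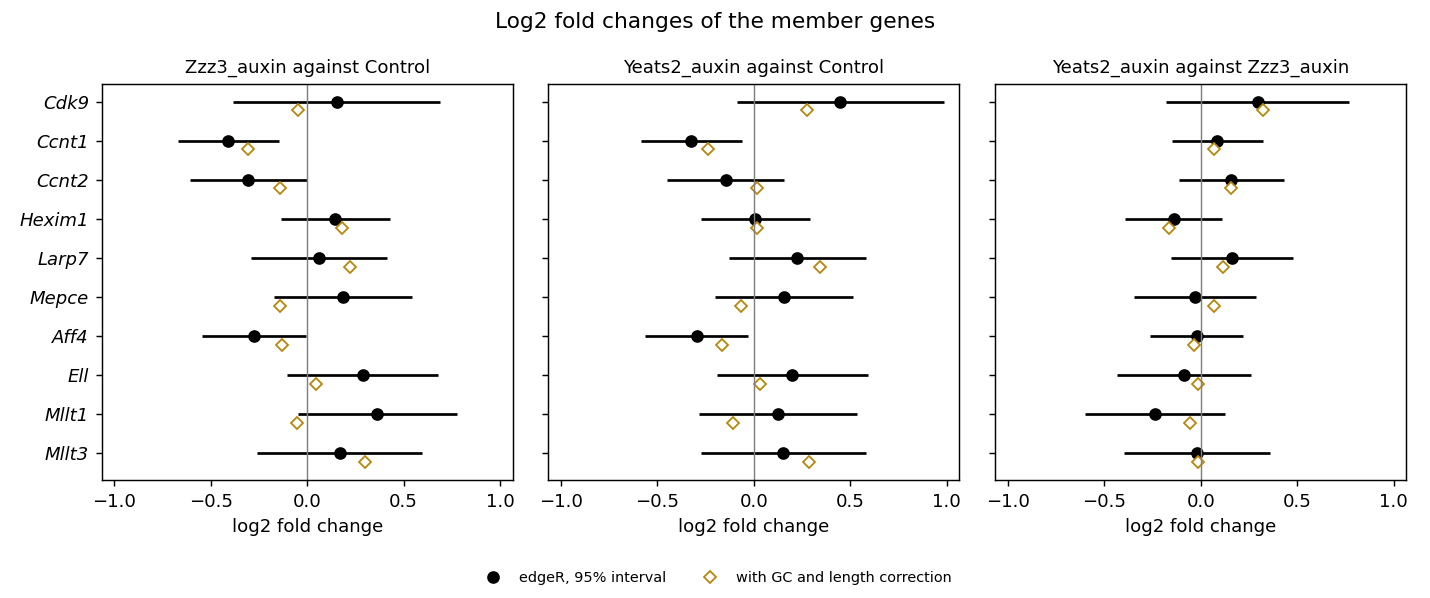
Log2 FC (horizontal axis) of each member in the 3 comparisons, with black points and lines for the edgeR estimate and its 95% interval and open diamonds for the estimate after correction for GC content and length. Intervals exclude 0 for Ccnt1, Ccnt2 and Aff4 in Zzz3_auxin and for Ccnt1 and Aff4 in Yeats2_auxin before adjustment, and all stay within -1 and 1.

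Counted over members, the libraries of both groups did not overlap for 2 of 10 in Zzz3_auxin (Ccnt1 and Aff4, lower), beside 35.8% of all genes, and for 4 of 10 in Yeats2_auxin (Ccnt1 and Aff4, lower; Cdk9 and Larp7, higher), beside 40.3%. Between both depletions it was 0 of 10, beside 11.1% of all genes. The median log2 FC over the members was 0.15 in Zzz3_auxin and 0.14 in Yeats2_auxin, where the median over all genes was 0.01 and -0.01, with 7 estimates above 0 and 3 below in each. Without Zzz3_auxin 1 the first was 0.028, without Control 1 alone it was 0.063, and without Control 1 the second was -0.0027. No shift of the whole group in 1 direction was therefore seen, since the cyclins and the scaffold lay lower and most others higher.

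Between Yeats2_auxin and Zzz3_auxin, with 3 libraries on each side and no Control library in the contrast, the members' log2 FC ran from -0.24 (Mllt1, interval -0.60 to 0.13) to 0.30 (Cdk9, interval -0.18 to 0.77). The lowest adjusted P was 0.784. Ccnt1 differed by 0.09 (-0.15 to 0.32) and Aff4 by -0.02 (-0.26 to 0.22). No difference between both depletions was called for these 2 genes, and their intervals are unadjusted and come from the main fit.

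Estimates varied with base composition. The annotated transcripts of Ccnt2, Aff4, Mllt3, Larp7 and Ccnt1 had a GC content of 42.5% to 45.8%, Hexim1 had 49.2%, and Cdk9, Ell, Mepce and Mllt1 had 55.2% to 59.8%. Over the 10 members, Pearson r between GC content and log2 FC was 0.75 (Spearman rho 0.77) in Zzz3_auxin and 0.58 (0.42) in Yeats2_auxin, given as a description since the genes share the same libraries. After correction for each library's dependence on GC content and length, r was -0.12 and -0.11. The correction takes out each library's GC trend, so a loss of this slope is built into it. It would also take out a difference between groups that followed GC content. The estimate for Ccnt1 then became -0.31 ± 0.09 (adjusted P = 0.124) and -0.24 ± 0.09 (adjusted P = 0.280), and that for Aff4 became -0.13 ± 0.10 and -0.16 ± 0.10 (adjusted P = 0.550 and 0.520). Mllt1, Mepce and Cdk9 in Zzz3_auxin moved from above to below 0 (-0.05, -0.14 and -0.05), as Mllt1 and Mepce did in Yeats2_auxin (-0.11 and -0.07), whereas Ccnt2 in Yeats2_auxin moved to 0.01. Larp7 (0.22 and 0.34) and Mllt3 (0.30 and 0.28) moved further above 0. The median over members became -0.05 and 0.02. Without Control 1 and Zzz3_auxin 3, the libraries with the strongest GC trends, it was 0.03 and 0.01.

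**Figure D3:**
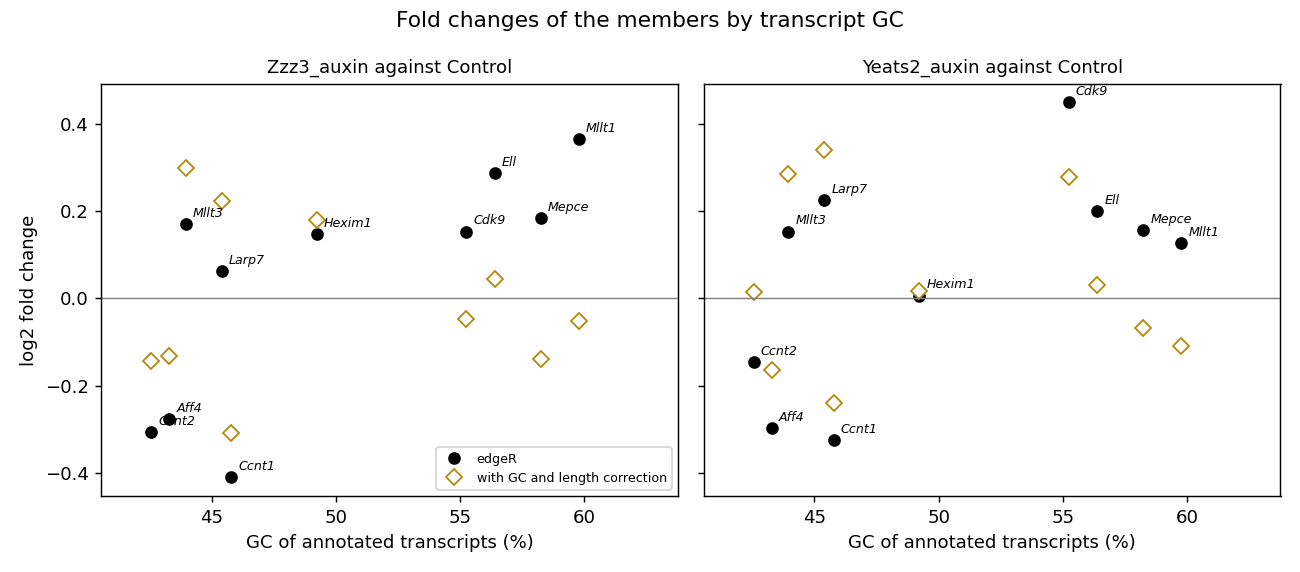
Log2 FC against Control (vertical axis) by GC content of the annotated transcripts in percent (horizontal axis), for Zzz3_auxin and Yeats2_auxin, with black points before and open diamonds after correction for GC content and length, and 1 pair for each of the 10 members. Before correction the members over 55% GC lie above 0 and Ccnt1, Ccnt2 and Aff4 below. After it, r was -0.12 and -0.11, and the loss of slope is built into a correction that takes out each library's GC trend.

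Ratios within a library do not depend on its depth, but they may still carry its GC trend where the paired genes differ in GC content. No ratio was corrected for it. The log2 ratio of inhibitor to kinase RNA, Hexim1 to Cdk9 in counts per kilobase, was 0.56 and 0.71 in Control, 0.49, 0.30 and 1.20 in Zzz3_auxin and 0.53, -0.14 and 0.32 in Yeats2_auxin. The Yeats2_auxin values lay below both controls, by 0.40 on average, and Zzz3_auxin overlapped Control, with a difference of 0.03. Without Yeats2_auxin 2, the library with the highest Cdk9, the Yeats2_auxin difference was -0.21. Ccnt1 to Ccnt2 was -0.01 and 0.05 in Control, -0.13, -0.15 and 0.05 in Zzz3_auxin and -0.10, -0.27 and -0.11 in Yeats2_auxin. These were close to even counts per kilobase, a level that depends on the annotated exon lengths. Mllt1 to Mllt3 was 0.35 and 1.14 in Control, 0.60, 0.86 and 1.48 in Zzz3_auxin and 0.79, 0.70 and 0.70 in Yeats2_auxin, so the controls differed from each other by more than the groups did. GC content was 59.8% in Mllt1 and 43.9% in Mllt3. The lowest and highest ratios were in Control 1 and Zzz3_auxin 3, the libraries with the strongest GC trends. None of the 9 tests of these ratios passed. The exact permutation P values over libraries, two-sided, were 0.2 to 1, with adjusted values of 0.9 or 1. The design allows no P under 0.2 against Control and none under 0.1 between both depletions.

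**Figure D4:**
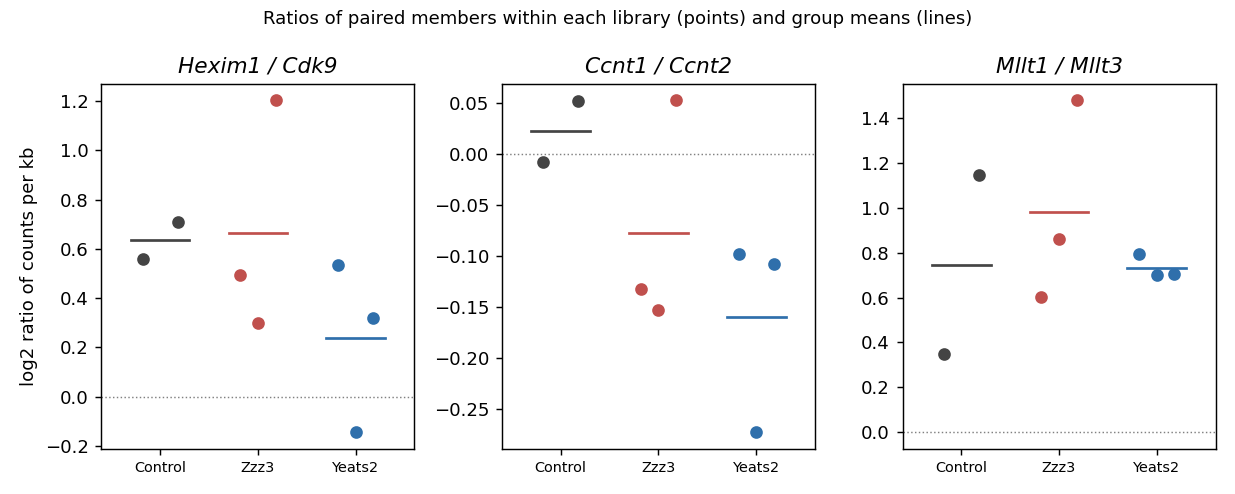
Log2 ratio of counts per kilobase (vertical axis) of Hexim1 to Cdk9, Ccnt1 to Ccnt2 and Mllt1 to Mllt3 within each of the 8 libraries (points) with group means (lines), each panel with its own scale. Groups overlap except for Hexim1 to Cdk9 and Ccnt1 to Ccnt2 in Yeats2_auxin, which lie below both controls.

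The RNA that ties the inhibitor to P-TEFb varied more than any member. Rn7sk was at 7916 and 16359 CPM in Control, 11019, 11621 and 30038 in Zzz3_auxin and 12384, 20931 and 10511 in Yeats2_auxin, 3.79 times between the lowest and the highest. The ends of this range were Control 1 and Zzz3_auxin 3, the libraries at both ends of the GC trend. The log2 FC was 0.53 ± 0.51 in Zzz3_auxin (-0.62 to 1.68, adjusted P = 0.578) and 0.27 ± 0.50 in Yeats2_auxin (-0.87 to 1.41, adjusted P = 0.837), and without both of these libraries it was -0.52 and -0.15. 7SK is transcribed by RNA polymerase III, has no poly(A) tail and has near-identical copies in the genome, so reads that align to several places were left out of its count. The labels name poly(A) RNA as the molecule, whereas the protocol describes ribosomal RNA depletion. Hexim2, the paralog of Hexim1 that lies next to it (chr11:103132429-103139876), was at 6.27 and 6.58 CPM in Control, 6.56, 7.11 and 10.2 in Zzz3_auxin and 7.81, 7.89 and 7.44 in Yeats2_auxin, and the log2 FC was 0.30 ± 0.21 and 0.26 ± 0.21 (adjusted P = 0.449 and 0.593).

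Around the members, 44 other genes of the pathway were counted from fixed lists, of which 41 passed the filter, the targeted gene Yeats2 among them. By edgeR, 0 of 41 were called in any of the 3 comparisons. At an unadjusted P under 0.05, 9 passed in Zzz3_auxin (5 higher, 4 lower), 7 in Yeats2_auxin (5 higher, 2 lower) and 3 between both depletions, beside 21.7%, 14.6% and 6.25% of all genes. DESeq2 called 5, 0 and 0, beside 7.47%, 3.15% and 0.00909%. The median log2 FC of these 41 was 0.08 in Zzz3_auxin and -0.03 in Yeats2_auxin.

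The lists are given with their median log2 FC in Zzz3_auxin and then Yeats2_auxin, and with the same medians after correction for GC content and length. The 7SK RNA, the second inhibitor and release factors had 0.07 and 0.13 over 6 tested genes (corrected, -0.07 and 0.07), and the most abundant messenger of this list, Ddx21, a helicase that can release P-TEFb from 7SK, was at 517 to 850.3 CPM. The other AFF, ELL and EAF genes had -0.04 and -0.22 over 5 of 7 (corrected, -0.01 and -0.32), since Aff2 and Ell3 were too low to test. The leading ones were Aff1, an alternative SEC scaffold, at 227 to 323 CPM, and the ELL cofactor Eaf1 at 101 to 147 CPM. Aff3 (7 to 23 reads) and Eaf2 (8 to 28 reads) had few reads, and the corrected -0.01 was the estimate for Eaf2. Over the alternative fits the medians of this list ran from -0.18 to 0.21 in Zzz3_auxin and from -0.37 to 0.02 in Yeats2_auxin. NELF and DSIF genes, which hold the pause, had 0.21 and 0.18 over 6 (corrected, -0.03 and 0.01), led by Supt5 of DSIF at 181 to 249 CPM and Nelfcd of NELF at 68.5 to 90.7 CPM. The PAF1 complex and elongation factors had -0.05 and 0.01 over 8 (corrected, -0.04 and 0.01), led by the elongation factor gene Supt6 (185 to 322 CPM) and Ctr9 of PAF1 (137 to 193 CPM).

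The other transcription kinases and cyclins had -0.04 and -0.13 over 6 (corrected, 0.05 and -0.08), led by Cdk12 (211 to 314 CPM) and Cdk13 (128 to 161 CPM), which phosphorylate elongating polymerase. The list of the histone methyltransferase DOT1L, which binds the same YEATS proteins as the SEC, and its partners had 0.08 and 0.04 over 3 (corrected, -0.11 and -0.16). It held Dot1l itself and was led by Mllt6 (217 to 306 CPM) and Mllt10 (124 to 163 CPM). The 4 YEATS domain genes, which include Mllt1 and Mllt3, had 0.27 and 0.12 (corrected, 0.23 and 0.01), led by the targeted gene Yeats2 and by Yeats4 (57.8 to 76.1 CPM). In Zzz3_auxin the middle estimates of this list, which set its median, were those of the members Mllt1 (0.36) and Mllt3 (0.17). Immediate early genes, textbook cases of control by pause release, had 0.57 and 0.32 over 5 of 6 (corrected, 0.40 and 0.08), with Egr1 too low to test. These genes were weakly expressed even at their highest, with Ier2 at 13.5 to 26.4 CPM and Myc at a mean of 5.04 CPM. Jun had 5 to 34 reads per library. Over the alternative fits the medians of this list ran from 0.26 to 1.81 in Zzz3_auxin and from 0.03 to 0.69 in Yeats2_auxin.

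**Figure D5:**
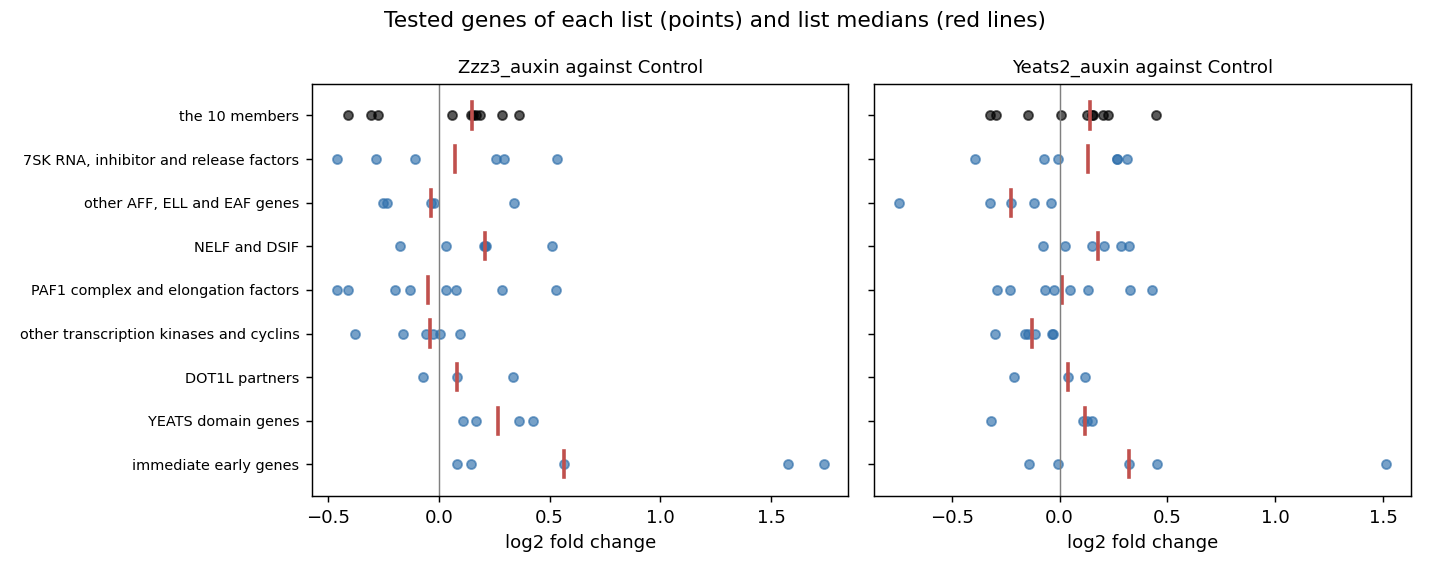
Log2 FC against Control (horizontal axis) of the tested genes of each list (points; the 10 members in black) with the list median (red line), for Zzz3_auxin and Yeats2_auxin. List medians lie between -0.22 and 0.57, with the widest scatter among the weakly expressed immediate early genes.

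Some genes of these lists, 6 in all, were called under alternatives in Zzz3_auxin and are named here after their values were seen. Where libraries are said to lie above or below both controls, the shares of all genes were 35.8% in Zzz3_auxin and 40.3% in Yeats2_auxin, in either direction. Leo1 of the PAF1 complex was at 82.0 and 97.6 CPM in Control, 129, 126 and 134 in Zzz3_auxin and 117, 130 and 116 in Yeats2_auxin, above both controls in all 6 auxin libraries. Its log2 FC was 0.53 ± 0.12 in Zzz3_auxin (adjusted P = 0.0651 by edgeR, 0.00684 by DESeq2, 0.0447 with the GC and length correction) and 0.43 ± 0.12 in Yeats2_auxin (adjusted P = 0.147). Nelfa of NELF was at 40.4 and 45.5 CPM in Control, 70.0, 54.1 and 59.4 in Zzz3_auxin and 58.5, 48.1 and 54.3 in Yeats2_auxin, also above both controls throughout, with a log2 FC of 0.51 ± 0.15 in Zzz3_auxin (adjusted P = 0.0960 by edgeR, 0.0348 by DESeq2).

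Srsf2, a splicing factor that can help release P-TEFb from 7SK, was at 588 and 507 CPM in Control, 392, 419 and 385 in Zzz3_auxin and 459, 348 and 443 in Yeats2_auxin, below both controls throughout. For this gene the log2 FC was -0.46 ± 0.14 in Zzz3_auxin (adjusted P = 0.104 by edgeR, 0.0447 by DESeq2). Fos was at 0.395 and 0.544 CPM in Control, 1.19, 1.10 and 2.68 in Zzz3_auxin and 1.04, 1.56 and 1.46 in Yeats2_auxin, and Junb at 1.92 and 2.59 in Control, 4.22, 3.63 and 12.9 in Zzz3_auxin and 2.44, 4.52 and 2.29 in Yeats2_auxin. Both are transcription factor genes weakly expressed here, with at least 8 and 39 reads in each library, and DESeq2 gave adjusted P values of 0.0295 and 0.0232 in Zzz3_auxin where edgeR gave 0.0888 and 0.148. Tcea1, an elongation factor that rescues stalled polymerase, was at 72.6 and 63.4 CPM in Control, 47.0, 58.6 and 42.4 in Zzz3_auxin and 59.6, 57.7 and 56.5 in Yeats2_auxin, below both controls throughout. Its log2 FC in Zzz3_auxin was -0.46 ± 0.14 (adjusted P = 0.114), and -0.20 ± 0.11 (adjusted P = 0.401) with the GC and length correction. Without Zzz3_auxin 2, edgeR called Fos, Nelfa, Tcea1 and Leo1, beside 4.84% of all genes in that setting.

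The genes most like the kinase and the inhibitor across the 8 libraries were found among 3841 protein-coding genes of at least 10 CPM that overlap no other gene. For Cdk9 these were Dyrk3, Prpf19 and Lsm4, with Pearson r of log2 CPM of 0.958, 0.946 and 0.940, and each had its highest level in Yeats2_auxin 2 and its lowest in Zzz3_auxin 3 or, for Prpf19, Control 1. For Hexim1 they were Gadd45b, Creld2 and Zfp282, with r of 0.984, 0.962 and 0.957, and each had its highest level in Zzz3_auxin 3 and its lowest in Control 1. Such values are the upper end of many correlations over 8 libraries that share depth and GC trends, and they describe these libraries only.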

How the data were processed

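RNA-seq of 8 mouse ESC cultures (2 Control, 3 Zzz3_auxin, 3 Yeats2_auxin) was analysed from gene tables of raw counts deposited by the authors. Per the study's methods, reads were trimmed, ribosomal reads removed, the rest aligned to mm10 and uniquely aligned reads counted in union mode on Ensembl genes; the submitters' processing notes name STAR 2.5.3a, HTSeq 0.6.1p1, R 3.3.2 and DESeq2 1.16.1. The library kit was stranded, and the strand setting of the counting is not given in the sources used here. The 5 tallies of unassigned reads, of which the no-feature and ambiguous ones were 31.0% to 38.0% of uniquely aligned reads, were left out. GENCODE M21 (GRCm38, the same assembly as mm10) named 55141 of 55401 identifiers.

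Counts were fitted in R 4.3.3 with edgeR 4.0.16 (filterByExpr, TMM, robust quasi-likelihood test over all 8 libraries, two-sided, Benjamini-Hochberg adjustment over 17532 genes, called under 0.05). SEs are the log2 FC over the square root of F, and 95% intervals use the fit's degrees of freedom. Levels are TMM-scaled CPM. Alternatives were DESeq2 1.42.0, median-of-ratios size factors, no filter, only the compared groups, the replicate number as a block, a correction of each library's lowess trend (span 0.3) on transcript GC content and exon length, both together, and leaving out each library; leaving out Control 1 and Zzz3_auxin 3 together was added after seeing the data. Ratios were tested by exact permutation (scipy 1.17.1). Promoters are RefSeq's. In simulated data with 200 changed genes the pipeline was tested before use.

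The members, lists and tests were chosen with earlier results of these data known. Named pathway genes were Rn7sk, Hexim2 and, per list, the called genes or else the 2 of largest mean CPM; 1 other gene of this rule is not reported here. The 3 genes most like Cdk9 and Hexim1 are those with the highest Pearson r of log2 CPM (prior count 2). Depth, 14315120 to 27884704 assigned reads, made counting error small for the members, and the 2 controls limit precision.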

Additional observations from a re-analysis of the deposited data

How the results depend on the processing

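No member was called in any comparison under any alternative except DESeq2, which called 1 in Zzz3_auxin against Control. In that comparison, other pathway genes called numbered 5 with DESeq2 (beside 7.47% of all genes), 5 without the filter (4.67%), 1 with the GC and length correction (1.15%) and 0 to 4 when each replicate was left out (0 to 4.84%). In Yeats2_auxin against Control and between both depletions the number was 1 without the filter (Fos and Yeats2), beside 1.68% and 0.354%. Calls over all genes ranged from 0 to 1542 in Zzz3_auxin and from 0 to 553 in Yeats2_auxin, beside 132 and 78, with 0 in both without Control 1. The median over members in Zzz3_auxin was -0.050 with the GC and length correction, -0.0040 with the replicate block and that correction, and 0.028 to 0.21 when each replicate was left out. In Yeats2_auxin it was 0.016 with the GC and length correction, 0.012 without both Control 1 and Zzz3_auxin 3, and -0.0027 to 0.17 when each replicate was left out. The replicate numbers did not pair the libraries (correlation of same-numbered deviations -0.34 to 0.31). The replicate block alone left 42 and 32 calls over all genes and called no member.

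Medians of the other pathway lists that changed sign with the GC and length correction were, in Zzz3_auxin, those of the 7SK list (-0.074), NELF and DSIF (-0.028), the other kinases (0.052) and the list of DOT1L and its partners (-0.11), and in Yeats2_auxin that of DOT1L and its partners (-0.16). Of all 16 alternatives, the sign changed in Zzz3_auxin in 5 for DOT1L and its partners and in 4 each for the 7SK list, PAF1 and the other kinases. It changed there in 3 for the AFF, ELL and EAF list, in 1 for NELF and DSIF and in 0 for the rest. In Yeats2_auxin it changed in 6 for DOT1L and its partners, in 2 each for the AFF, ELL and EAF list and the YEATS domain genes, in 1 for PAF1 and in 0 for the rest. Among the members, Rn7sk, Hexim2, Leo1 and the genes named for calls under alternatives, the signs that changed were those of estimates that had not been called, and the cause was not tested. With the GC and length correction they were Cdk9 (-0.048), Mepce (-0.14) and Mllt1 (-0.052) in Zzz3_auxin, Ccnt2 (0.014), Mepce (-0.069) and Mllt1 (-0.11) in Yeats2_auxin, and Mepce (0.071) between both depletions. With the replicate block, Mllt3 (0.015) changed between both depletions. With the replicate block and that correction together they were Mepce (-0.044), Mllt1 (-0.036) and Hexim2 (-0.033) in Zzz3_auxin, Ccnt2 (0.054) and Mllt1 (-0.094) in Yeats2_auxin, and Mepce (0.11) and Mllt3 (0.0054) between both depletions. Without both Control 1 and Zzz3_auxin 3 they were Ell (-0.037) and Rn7sk (-0.52) in Zzz3_auxin, Ccnt2 (0.023), Hexim1 (-0.068), Mllt1 (-0.079) and Rn7sk (-0.15) in Yeats2_auxin, and Ell (0.038) between both depletions.

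When each replicate was left out, estimates that crossed 0 were, in Zzz3_auxin, Mllt3 (-0.051 to 0.33), Larp7 (-0.040 to 0.24), Rn7sk (-0.089 to 1.16) and the log2 ratios Hexim1 to Cdk9 (-0.24 to 0.21) and Mllt1 to Mllt3 (-0.16 to 0.63). In Yeats2_auxin they were Ccnt2 (-0.28 to 0.0085), Hexim1 (-0.082 to 0.10), Ell (-0.014 to 0.46), Mllt1 (-0.093 to 0.39), Rn7sk (-0.16 to 0.89) and the log2 ratio Mllt1 to Mllt3 (-0.41 to 0.38). Between both depletions they were Mepce (-0.14 to 0.12), Mllt3 (-0.15 to 0.22), Larp7 (-0.0034 to 0.27), Ell (-0.15 to 0.034) and Aff4 (-0.078 to 0.067). Leaving out a control left 1 control library, whose spread was then taken from the other groups. Depth limits the weakly expressed genes of the lists, such as Fos, Aff3 (7 to 23 reads) and Eaf2 (8 to 28 reads).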
